A study of Mus musculus with 6 samples.

Results

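The genes examined here encode chemokines that attract T cells and the receptors that bind them: *Cxcl9*, *Cxcl10* and *Cxcl11* with their receptor *Cxcr3*, *Cxcl16* with its receptor *Cxcr6*, and *Ccl5*. They were chosen by name as the ligands and receptors of these axes, and they make up 7 of the 54309 gene identifiers in the deposited table. All 7 passed the filter on low values. RNA was sequenced from whole subcutaneous tumors of MCA205, a transplantable fibrosarcoma line of the C57BL/6 strain. Female C57BL/6J mice aged 7 weeks received MCA205 cells under the skin of the right flank on day 0. The Control group (3 tumors) drank milliQ water, and the FF-10101 group (3 tumors) drank water with FF-10101 at 0.1 mg/mL from day 1 to day 8, when all tumors were collected. FF-10101 is a tyrosine kinase inhibitor developed against FLT3, which the study used to inhibit CSF1R, the receptor that sustains macrophages. The design text describes the 3 tumors of a group as biological replicates. Because the drug was taken with drinking water, the intake of each mouse is not known from the labels. The purpose stated for this experiment was to look for the basis of tumor regression under FF-10101.

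Chemokines are small secreted proteins that direct the migration of cells carrying the matching G protein-coupled receptor. CXCR3 is carried by activated CD4+ and CD8+ T cells and by NK cells, and its ligands CXCL9, CXCL10 and CXCL11 are induced by interferon-γ in macrophages, dendritic cells, endothelial cells, fibroblasts and tumor cells. CXCL16 is made as a transmembrane protein, is shed by metalloproteases, and binds CXCR6 on effector and tissue-resident T cells. CCL5 is made by activated T cells and NK cells as well as by myeloid cells, and it binds several receptors, among them CCR1 and CCR3.

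The libraries held 9143806 to 13258258 reads, and 18467 to 19440 genes had a read in each. Values are given as normalized counts, that is, reads over the size factor of each tumor. A count of 0 reads allows up to 3 reads, or 2.29 to 3.38 normalized counts depending on the tumor, and this limit covers counting error only. The 7 genes held from 26 reads (*Cxcl11* in Control tumor 2) upward in each tumor. Of the markers of mesenchymal cells, which should be abundant in a fibrosarcoma, the summed normalized count was 89865 to 197831 in the control tumors and 146106 to 219032 in the FF-10101 tumors. Control tumor 1 stood apart from the other control tumors in the genes described here and, as given below, in many others. The log2 differences of the 7 genes, and the calls of the gene lists, are therefore given with and without that tumor. Control tumor 1 was picked out by these same values, so leaving it out raises the difference of each gene in which it was the highest control. The smaller adjusted p-values without it describe that dependence and are no support for a difference.

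Levels of different genes were compared per length, as reads per kilobase of the longest annotated transcript, scaled to the same total in each tumor. On this scale *Ccl5*, *Cxcl9*, *Cxcl10* and *Cxcl16* lay well above *Cxcr6*, *Cxcr3* and *Cxcl11*, and these sets did not mix in any of the 6 tumors. The control means of the length-scaled level were 462 ± 328 for *Cxcl9*, 459 ± 390 for *Ccl5*, 294 ± 257 for *Cxcl10* and 223 ± 81.7 for *Cxcl16* (SD, n = 3). The FF-10101 means of the same level were 1479 ± 301 for *Ccl5*, 1052 ± 163 for *Cxcl9*, 761 ± 170 for *Cxcl10* and 258 ± 35.3 for *Cxcl16*. By mean ± SD, neighbors in this order overlapped within the control group. So did *Ccl5* with *Cxcl9* and *Cxcl9* with *Cxcl10* in the FF-10101 group, where *Cxcl16* lay below *Cxcl10* by more than the spread. The genes were measured in the same tumors, so this overlap does not settle their order. In Control tumors 1, 2 and 3, *Cxcl9* was 839, 314 and 234 and *Ccl5* was 909, 235 and 232. Both lay above *Cxcl10*, which was 590, 163 and 128. *Ccl5* was first in Control tumor 1 and in the 3 FF-10101 tumors, and *Cxcl9* was first in Control tumors 2 and 3. With the median transcript length in place of the longest, *Cxcl9* was first in the 3 control tumors and FF-10101 tumor 3, *Cxcl10* in FF-10101 tumor 1 and *Ccl5* in FF-10101 tumor 2, so the order among the upper genes rests on the length used.

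The receptors were far less abundant than the leading ligands. The length-scaled level of *Cxcr6* was 21.1 ± 11.8 in the control and 31.6 ± 10.5 in the FF-10101 group, and that of *Cxcr3* was 12.5 ± 10.7 and 14.7 ± 5.67 (SD, n = 3). *Cxcr6* ranked below the 4 leading ligands and above the rest in each of the 6 tumors. *Cxcl11* had the lowest length-scaled level, 2.84 ± 2.20 in the control and 8.84 ± 3.63 in the FF-10101 group, and was last in all tumors but FF-10101 tumor 1, where *Cxcr3* was last. The spread of *Cxcr6* and *Cxcr3* overlapped in the control group and that of *Cxcr3* and *Cxcl11* in both groups.

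**Figure D1:**
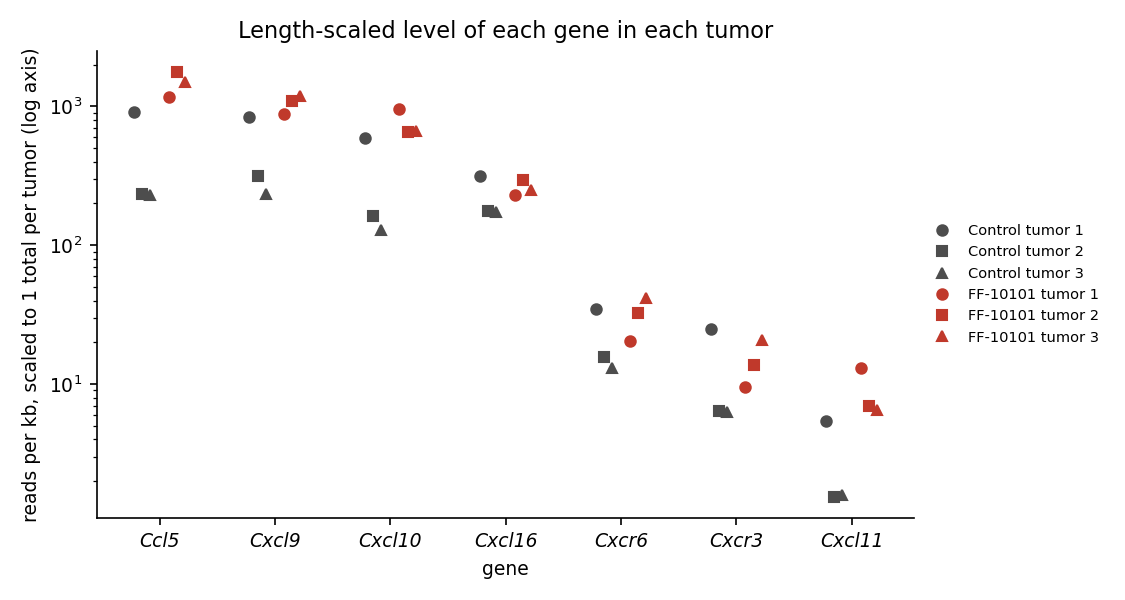
Length-scaled level (reads per kilobase of the longest transcript, scaled to 1 total per tumor, log axis) of the 7 genes, with 1 point per tumor, grey for Control and red for FF-10101. *Ccl5*, *Cxcl9*, *Cxcl10* and *Cxcl16* lie above *Cxcr6*, *Cxcr3* and *Cxcl11* in each tumor.

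The interferon-inducible ligands of CXCR3 are given first. *Cxcl9* (ENSMUSG00000029417), *Cxcl10* (ENSMUSG00000034855) and *Cxcl11* (ENSMUSG00000060183) lie together on chromosome 5. *Cxcl9* and *Cxcl10* are both abundant and neighbors, and their levels across tumors were close, so the 250 bases before their start sites are shown (RefSeq, build GRCm38.p6, minus strand, 5′ to 3′). Of the 7 genes, 4 matched an entry of the promoter table, *Cxcl9*, *Cxcl10*, *Cxcr3* and *Cxcr6*. Entries for *Ccl5*, *Cxcl11* and *Cxcl16* were not used here. The windows are chr5:92328080-92328329 for *Cxcl9* and chr5:92348890-92349139 for *Cxcl10*, and capitals mark the matches described next.
Cxcl9: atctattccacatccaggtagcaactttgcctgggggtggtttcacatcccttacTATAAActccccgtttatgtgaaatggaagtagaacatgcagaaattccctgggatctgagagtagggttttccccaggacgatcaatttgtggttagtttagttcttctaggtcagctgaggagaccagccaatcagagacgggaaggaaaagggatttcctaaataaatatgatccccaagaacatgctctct
Cxcl10: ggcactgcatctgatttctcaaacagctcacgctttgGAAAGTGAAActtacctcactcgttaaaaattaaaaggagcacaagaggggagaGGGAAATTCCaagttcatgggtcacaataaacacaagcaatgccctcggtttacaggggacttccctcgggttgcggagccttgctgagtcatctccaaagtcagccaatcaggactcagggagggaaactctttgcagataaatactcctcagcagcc

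Motifs were searched on both strands for the interferon-γ activated site GAS (TTC and GAA with 3 bases of any kind between them), the core of the interferon-stimulated response element (GAAA and GAAA with 2 bases between), the NF-κB site (GGGA and TTCC with 2 bases between) and the TATA box (TATAAA). No matches in these windows overlapped. The *Cxcl10* window held the response element core as GAAAGTGAAA at 213 to 204 bases before the start and the NF-κB letters as GGGAAATTCC at 159 to 150 bases before it. The *Cxcl9* window held TATAAA at 195 to 190 bases before the start and none of the other letters. The windows of *Cxcr3* (chrX:101734148-101734397, minus strand) and *Cxcr6* (chr9:123806227-123806476, plus strand) held none of these letters. Of 32851 windows of the same length, 7.02% held the GAS letters, 2.98% the response element core, 1.21% the NF-κB letters and 12.4% the TATA box. A match describes the letters of a window and is not a measured binding site.

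*Cxcl9* encodes a CXCR3 ligand that depends closely on interferon-γ. Its normalized count was 12678, 4369 and 3602 in Control tumors 1, 2 and 3, and 12026, 14761 and 16399 in FF-10101 tumors 1, 2 and 3. Control tumor 1 lay among the FF-10101 tumors, above the lowest of them, and Control tumors 2 and 3 lay below all of them, so the groups overlapped. The means were 6883 ± 5034 in the control and 14395 ± 2209 in the FF-10101 group (SD, n = 3), a ratio of 2.09. The log2 difference (FF-10101 minus Control, on log2(normalized count + 1)) was 1.29 with an SE of 0.44. In the limma fit across all genes its p was 0.0187 and its adjusted p was 0.249. The exact two-sided permutation test gave p = 0.2, where 3 against 3 tumors cannot go below 0.1. When Control tumor 1 was left out the log2 difference was 1.85 (limma adjusted p = 0.000831), and when Control tumor 3 was left out it was 0.94 (limma adjusted p = 0.63).

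*Cxcl10* encodes the CXCR3 ligand also called IP-10, which type I interferons and TNF induce as well. Its normalized count was 6881, 1746 and 1520 in the control tumors and 10156, 6894 and 7097 in the FF-10101 tumors. The groups did not overlap, although Control tumor 1 lay just under FF-10101 tumor 2. The means were 3382 ± 3032 and 8049 ± 1828 (SD, n = 3), a ratio of 2.38. The log2 difference was 1.59 (SE 0.53), with a limma adjusted p of 0.244 and an exact permutation p of 0.1, the smallest this design allows. Without Control tumor 1 the log2 difference was 2.28 (limma adjusted p = 0.000599). *Cxcl10* shared 103 of 2305 stretches of 31 bases (4.47%) with its neighbor *Art3*, which had 50.7 and 68.9 normalized counts on average in the Control and FF-10101 groups.

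*Cxcl11* is listed as a polymorphic pseudogene in GENCODE vM21 and as a transcribed pseudogene in RefSeq on GRCm38.p6. The C57BL/6 strain is known to carry an allele that does not encode the full chemokine. Its values here therefore describe a transcript. Its normalized count was 107, 28.3 and 32.2 in the control tumors and 235, 125 and 117 in the FF-10101 tumors. FF-10101 tumor 1 was the highest, the other FF-10101 tumors lay closely above Control tumor 1, and the groups did not overlap. The log2 difference was 1.69 (SE 0.53), with a limma adjusted p of 0.233 and an exact permutation p of 0.1. It was 2.29 (limma adjusted p = 0.00447) when Control tumor 1 was left out. Without Control tumor 2 or 3 it was 1.35 or 1.44 (limma adjusted p = 0.514 and 0.622). These values rest on 26 to 308 reads per tumor. Of the 3788 distinct stretches of 31 bases in its transcripts, 1597 (42.2%) also occur in transcripts of other genes, 1548 of them in *Gm2673*, so the assignment of its reads is less certain than for the other genes. The shorter of its transcripts, of 1581 bases, shared 49 of 1551 such stretches.

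*Ccl5* (ENSMUSG00000035042, chromosome 11) encodes a chemokine of activated T cells, NK cells and myeloid cells and showed the largest log2 difference of the 7 genes with all tumors. Without FF-10101 tumor 2 or 3, *Cxcl11* was higher on this scale (1.83 against 1.74, and 1.87 against 1.86). Its normalized count was 3177, 756 and 824 in the control tumors and 3716, 5566 and 4748 in the FF-10101 tumors. The 3 FF-10101 tumors lay above all control tumors, with Control tumor 1 nearest to them. The means were 1586 ± 1378 and 4677 ± 927 (SD, n = 3), a ratio of 2.95. Its log2 difference was 1.88 (SE 0.51), with a limma adjusted p of 0.229 and an exact permutation p of 0.1. It was 2.55 (limma adjusted p = 0.000273) when Control tumor 1 was left out, and 1.51 (limma adjusted p = 0.51) when Control tumor 2 was.

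*Cxcl16* (ENSMUSG00000018920, chromosome 11) encodes the membrane-bound ligand of CXCR6, made mainly by myeloid cells and by stroma. Its normalized count was 4479, 2301 and 2499 in the control tumors and 2946, 3781 and 3179 in the FF-10101 tumors. Control tumor 1 was the highest of all 6 and the other control tumors were the lowest, so the groups overlapped. The log2 difference was 0.15, with a 95% interval of -0.45 to 0.76, a limma adjusted p of 0.791 and an exact permutation p of 0.7. Leaving out Control tumor 1 gave 0.45, and leaving out Control tumor 2 gave -0.027. *Cxcl16* shared 522 of 2819 stretches of 31 bases (18.5%) with *Zmynd15*, whose own log2 difference was 0.02.

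Of the receptors, *Cxcr3* (ENSMUSG00000050232, chromosome X) had normalized counts of 225, 53.2 and 57.7 in the control tumors and 78.7, 112 and 171 in the FF-10101 tumors. Control tumor 1 was the highest of all tumors and the other control tumors were the lowest. For *Cxcr3* the log2 difference was 0.37, with a 95% interval of -0.93 to 1.67, a limma adjusted p of 0.765 and an exact permutation p of 0.6. It was 1.03 (limma adjusted p = 0.0575) when Control tumor 1 was left out and 0.0045 when Control tumor 2 was. These values rest on 49 to 200 reads per tumor.

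*Cxcr6* (ENSMUSG00000048521, chromosome 9) had normalized counts of 346, 145 and 132 in the control tumors and 186, 294 and 375 in the FF-10101 tumors. FF-10101 tumor 3 was the highest, Control tumor 1 came next, and the groups overlapped. The log2 difference was 0.54, with a 95% interval of -0.40 to 1.49, a limma adjusted p of 0.53 and an exact permutation p of 0.3. Without Control tumor 1 it was 0.98 (limma adjusted p = 0.0422). Neither *Cxcr3* nor *Cxcr6* shared a stretch of 31 bases with another gene.

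**Figure D2:**
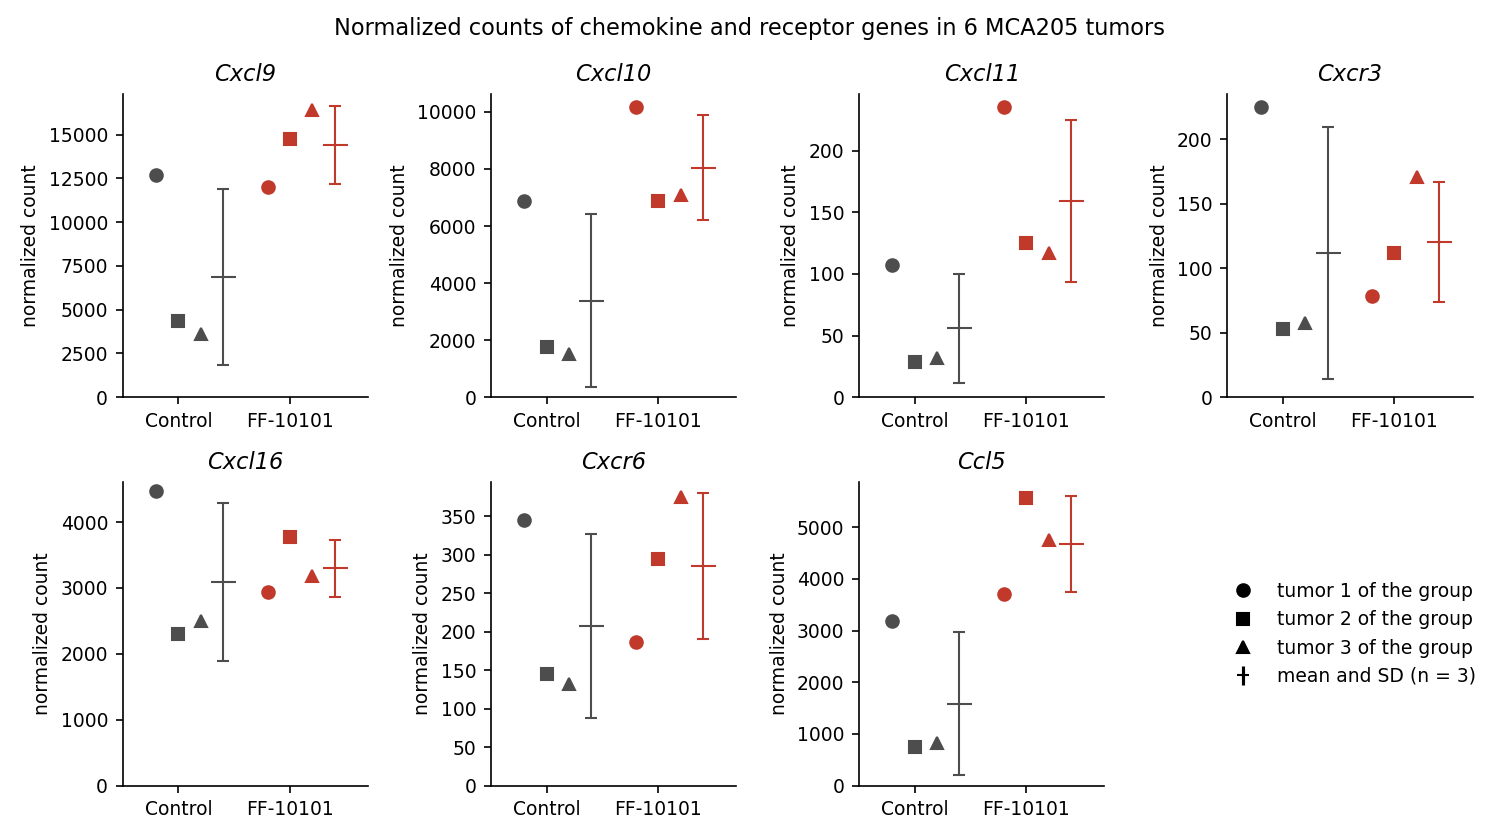
Normalized count of each of the 7 genes (linear axes from 0) in the 3 Control (grey) and 3 FF-10101 (red) tumors, with the mean and SD beside the points. Control tumor 1, the grey circle, is the highest control tumor in each panel, and *Cxcl10*, *Cxcl11* and *Ccl5* are the panels without overlap between the groups.

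Across the 7 genes, the log2 difference was above 0 in 7, as it was in 51.9% of the 13963 genes tested, and its median was 1.29 against 0.02 over all genes tested. None of the 7 passed limma at an adjusted p under 0.05, and neither did most other genes (0.043% passed). At an unadjusted p under 0.05, 4 of the 7 were higher in the FF-10101 group (*Cxcl9*, *Cxcl10*, *Cxcl11* and *Ccl5*), against 8.77% of all genes tested. The FF-10101 tumors lay above the control tumors without overlap for 3 of the 7, against 10.9%. The 4 genes with an unadjusted p under 0.05 had a ratio of group means of 2.09 to 2.95, whereas the ratios of *Cxcl16* and *Cxcr3* were 1.07 and that of *Cxcr6* was 1.38.

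Control tumor 1 held the highest value of the control group in 7 of the 7 genes, as it did in 44.6% of all genes tested. In 4 of the 7 it lay above the lowest FF-10101 tumor while the other control tumors lay below all FF-10101 tumors, a pattern found in 17.6% of all genes. The highest control tumor exceeded the lowest by 1.95 times (*Cxcl16*) to 4.53 times (*Cxcl10*). Among the FF-10101 tumors this span was 1.28 times (*Cxcl16*) to 2.17 times (*Cxcr3*). The coefficient of variation of *Cxcl9* was 73.1% in the control and 15.3% in the FF-10101 group, and that of *Ccl5* was 86.9% and 19.8%.

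Leaving out Control tumor 1 changed the calls. Without it, 5 of the 7 genes (*Cxcl9*, *Cxcl10*, *Cxcl11*, *Ccl5* and *Cxcr6*) were higher at a limma adjusted p under 0.05, against 12% of all genes tested, and the median log2 difference of the 7 was 1.85. Over all genes, 21.9% passed in either direction and 9.88% were lower. When Control tumor 2 was left out, none of the 7 passed (0.00716% of all genes did), 1 of the 7 was higher at an unadjusted p under 0.05 (5.24% of all genes were), and their median was 1.08. With Control tumor 3 left out, none of the 7 passed (0.0215% of all genes did), 2 were higher at an unadjusted p under 0.05 (4.43% of all genes were), and their median was 0.94. 

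**Figure D3:**
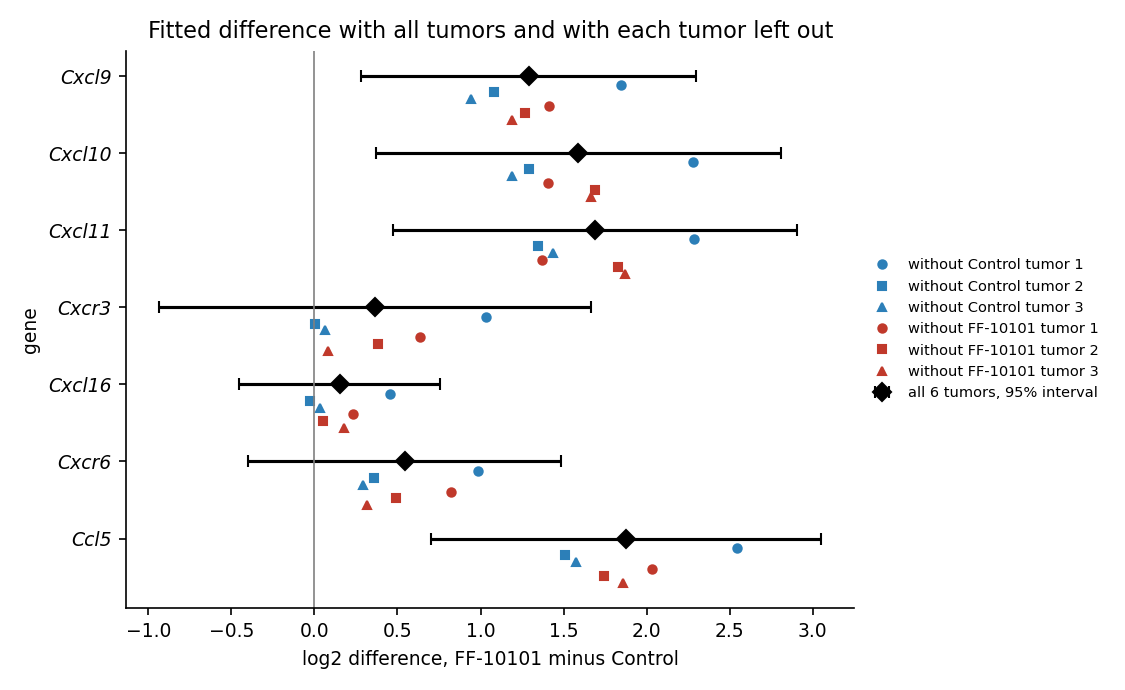
Log2 difference (FF-10101 minus Control) of each gene with all 6 tumors (black diamonds, with the 95% interval of limma) and after removal of single tumors (blue for Control, red for FF-10101). For each gene the value without Control tumor 1, the blue circle, is the farthest to the right, 2.55 for *Ccl5* and 0.45 for *Cxcl16*.

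The 7 genes varied together from tumor to tumor, to different degrees. Pearson's r over the 6 tumors, given as a description since the points share their library and depth, was 0.98 for *Cxcl9* with *Ccl5* and for *Cxcl10* with *Cxcl11*, and 0.95 for *Cxcr3* with *Cxcr6*. The lowest was 0.56, for *Cxcl11* with *Cxcr3*. After the group means were removed, r ranged from 0.47 (*Cxcl11* with *Cxcr6*) to 0.99 (*Ccl5* with *Cxcl16*). Of the 11508 genes whose mean normalized count reached 50, those most like the mean profile of *Cxcl9*, *Cxcl10* and *Cxcl11* were *Pdia3*, *Robo2*, *Stat2*, *Ptx3* and *Spon1*, with r from 0.994 to 0.999. Such likeness was common, with r above 0.9 in 6.93% of those genes. *Stat2*, a transcription factor of type I interferon signaling, had normalized counts of 962, 417 and 366 in the control and 1198, 1015 and 1102 in the FF-10101 tumors. The genes most like the mean profile of *Cxcr3* and *Cxcr6* were *Lgals3*, *Dapk1*, *Sqor*, *Ubash3a* and *Plin2*, with r from 0.994 to 0.998, and 6.58% of genes had r above 0.9. *Ubash3a*, a regulator of T cell receptor signaling, had normalized counts of 87.8, 35.9 and 37.7 in the control and 45.1, 68.4 and 88.0 in the FF-10101 tumors.

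Ratios within a tumor were compared next, with p-values of 9 ratios from exact two-sided permutation tests, for which 0.1 is the smallest possible, adjusted over the 9. The balance among the CXCR3 ligands did not differ beyond the spread between tumors. The log2 ratio of *Cxcl9* to *Cxcl10* was 0.88, 1.32 and 1.24 in the control and 0.24, 1.10 and 1.21 in the FF-10101 tumors. FF-10101 tumor 1 was the lowest, and the difference was -0.30 (permutation p = 0.5), or 0.0039 without that tumor. For *Cxcl11* to *Cxcl10* the difference in log2 ratio was 0.10, for *Cxcl9* to *Cxcl11* it was -0.40, and for *Cxcr6* to *Cxcr3* it was 0.18, with permutation p-values of 0.6, 0.6 and 0.7. The log2 ratio of *Cxcl16* to *Cxcr6* differed by -0.39 (permutation p = 0.2).

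The receptors and *Ccl5* were also set against the mean log2 level of 15 T cell markers in the same tumor. In bulk tumors, fewer cells of a type and less RNA per cell cannot be told apart. The log2 ratio of *Cxcr3* to the T cell markers was -0.37, -1.08 and -0.86 in the control and -0.70, -1.13 and -0.66 in the FF-10101 tumors, a difference of -0.059 (permutation p = 0.9), or 0.14 without Control tumor 1. That of *Cxcr6* was 0.24, 0.35 and 0.32 against 0.53, 0.26 and 0.48, a difference of 0.12 (permutation p = 0.3). For *Ccl5* the log2 ratio to the T cell markers was 3.44, 2.73 and 2.96 in the control tumors. It was 4.84, 4.50 and 4.13 in the FF-10101 tumors, without overlap between the groups. The share of all genes whose ratio to these markers would not overlap was not counted. The ratios of *Ccl5*, *Cxcr3* and *Cxcr6* were not tested against one another. The difference was 1.45, ranging from 1.27 to 1.65 when single tumors were removed (permutation p = 0.1, adjusted p = 0.45).

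*Cxcl16* was set against 9 macrophage markers. Its log2 ratio to their mean log2 level was -0.21, -0.57 and -0.38 in the control and 0.65, 0.44 and 0.09 in the FF-10101 tumors, again without overlap. Here too the share of all genes without overlap was not counted. The difference was 0.78, ranging from 0.65 to 0.93 when single tumors were removed (permutation p = 0.1, adjusted p = 0.45). The normalized count of *Cxcl16* itself overlapped between the groups, while the macrophage markers had lower values in the FF-10101 tumors, as given below.

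**Figure D4:**
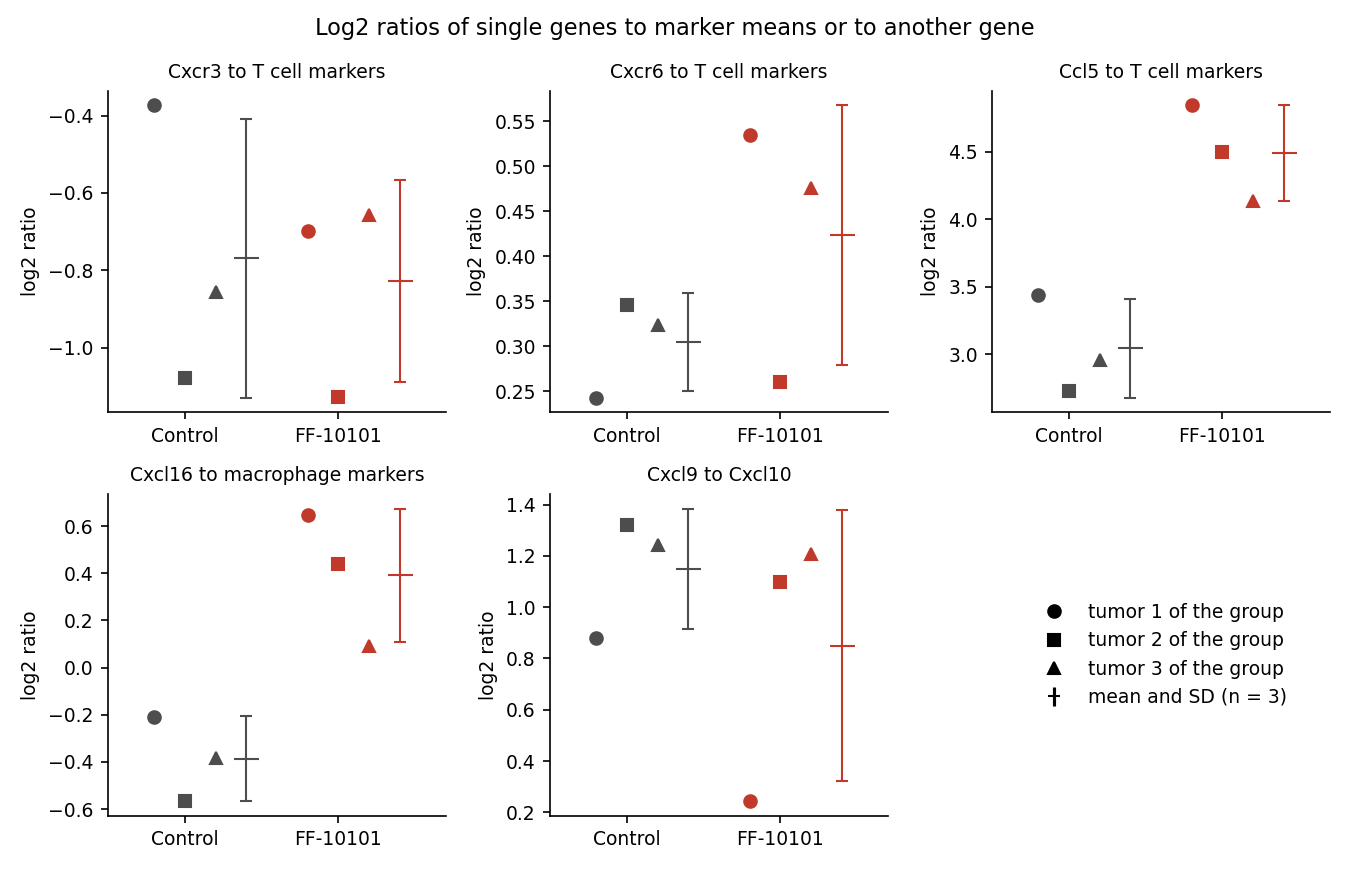
Log2 ratio in each tumor of *Cxcr3*, *Cxcr6* and *Ccl5* to the mean log2 level of the T cell markers, of *Cxcl16* to that of the macrophage markers, and of *Cxcl9* to *Cxcl10*, with the mean and SD beside the points (axes do not start at 0). The ratios of *Ccl5* to T cell markers and of *Cxcl16* to macrophage markers are those without overlap between the groups.

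Other receptors of these chemokines were examined next. Of 6 genes, 5 had a log2 difference above 0 and none passed at an adjusted p under 0.05 (limma). Of the CCL5 receptors, *Ccr1* had a log2 difference of -0.33 and *Ccr3* of 0.70 (0.081 without FF-10101 tumor 3), both with overlapping groups. *Ackr2*, a scavenging receptor that removes CC chemokines, had normalized counts of 21.4, 2.17 and 8.87 in the control and 105, 63.0 and 29.3 in the FF-10101 tumors. Its FF-10101 tumors lay above all controls, Control tumor 2 was under the limit of 3 reads, and the log2 difference was 2.73 (SE 0.77, limma adjusted p = 0.229), or 3.40 without Control tumor 1 (limma adjusted p = 0.0118) and 1.99 without Control tumor 2 (limma adjusted p = 0.51). *Ackr1*, which binds chemokines on venules and red cells, and *Ackr3*, which binds CXCL11, had log2 differences of 1.18 and 0.97 with overlapping groups, or 2.35 and 1.52 without Control tumor 1 (limma adjusted p = 0.0606 and 0.0461). *Ackr1* had 0.10 without Control tumor 2 (limma adjusted p = 0.974), and *Ackr3* had as low as 0.47 when single tumors were left out.

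*Pf4*, which encodes platelet factor 4, a further CXCR3 ligand found in platelets and in some macrophages, ran the other way. Its normalized count was 1149, 920 and 915 in the control and 331, 302 and 709 in the FF-10101 tumors. All FF-10101 tumors lay below the controls, as in 9.37% of all genes tested, and the log2 difference was -1.26 (SE 0.32, limma adjusted p = 0.229). Control tumor 1 was close to the other control tumors here, and without it the log2 difference was -1.15 (limma adjusted p = 0.0435). The enzymes that process these chemokines had overlapping groups. The log2 difference was 0.62 for *Dpp4*, which trims CXCR3 ligands (as low as 0.060 when single tumors were left out), and -0.10 and 0.22 for *Adam10* and *Adam17*, which shed CXCL16.

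Of 11 genes of interferon-γ and TNF signaling, which induces the CXCR3 ligands, 10 had a log2 difference above 0 and none passed at an adjusted p under 0.05 (limma). At an unadjusted p under 0.05, *Ifng*, *Jak2* and *Irf1* were higher and *Ifngr2* lower, against 8.77% higher and 7.49% lower over all genes. *Ifng* had normalized counts of 146, 25.0 and 11.1 in the control and 132, 115 and 188 in the FF-10101 tumors, with Control tumor 1 again among the FF-10101 tumors, and its log2 difference was 1.99 (SE 0.80, limma adjusted p = 0.29), or 3.01 without Control tumor 1 (limma adjusted p = 0.00272) and 1.21 without Control tumor 3 (limma adjusted p = 0.679). *Irf1*, an interferon-induced transcription factor gene, had a log2 difference of 0.77, and the kinase genes *Jak2* and *Jak1* had 0.80 and 0.43. *Ifngr2*, a chain of the interferon-γ receptor, had a log2 difference of -0.38 with the FF-10101 tumors below the controls, while *Ifngr1*, its other chain, had 0.17. The feedback inhibitor gene *Socs1* had a log2 difference of 0.50, or 0.26 without Control tumor 3 and 0.98 without Control tumor 1 (limma adjusted p = 0.898 and 0.0154). When single tumors were left out, *Irf1* had 0.60 to 1.10 and *Jak2* had 0.60 to 1.04. Likewise *Jak1* had 0.22 to 0.72 and *Ifngr1* had 0.0073 to 0.46. For *Tnf*, *Nfkb1* and *Rela*, of the NF-κB pathway, the log2 differences were 0.28, 0.17 and 0.019, and leaving out single tumors took *Tnf* to -0.029 and *Rela* to -0.10. Without Control tumor 1, 7 of the 11 passed at an adjusted p under 0.05 (limma), 6 higher and 1 lower, against 12% higher and 9.88% lower of all genes tested.

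Of 13 other chemokine genes that attract T cells, 11 could be tested, with 6 above 0 and 5 below. None passed at an adjusted p under 0.05 (limma), and 3 did without Control tumor 1, 2 higher and 1 lower, against 12% higher and 9.88% lower of all genes tested. The largest log2 differences were those of *Ccl4* (1.58, limma adjusted p = 0.275, and 2.38 with 0.000672 without Control tumor 1) and *Ccl3* (1.30, limma adjusted p = 0.351, and 2.13 with 0.00306), which encode chemokines of activated T cells and macrophages. Without Control tumor 3, *Ccl4* and *Ccl3* had 1.17 and 0.86 (limma adjusted p = 0.67 and 0.763). *Ccl4* had normalized counts of 253, 46.7 and 46.6 in the control and 265, 210 and 273 in the FF-10101 tumors, the same arrangement as for *Cxcl9*. Of 8 other T cell chemokine receptor genes, 5 could be tested, 3 with a log2 difference above 0 and 2 below, and none passed at an adjusted p under 0.05 (limma). *Ccr8*, a receptor of regulatory T cells, had a log2 difference of 0.61 with overlapping groups. *Cxcr4*, the receptor of CXCL12, had 0.57 with the FF-10101 tumors above the controls (limma adjusted p = 0.26), or 0.71 without Control tumor 1 (limma adjusted p = 0.0343). It had 0.41 without Control tumor 3 (limma adjusted p = 0.639).

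Markers of cells that can make these chemokines or carry their receptors were counted beside them, and no marker of any list passed at an adjusted p under 0.05 with all tumors (limma). Leaving out Control tumor 1 changed these calls as well. The markers that then passed were 6 of 6 endothelial, 4 of 5 tested neutrophil, 4 of 6 NK cell, 4 of 15 T cell, 3 of 7 mesenchymal and 2 of 8 dendritic cell markers, all higher, and 3 of 9 macrophage markers, all lower, against 12% higher and 9.88% lower of all genes tested. The summed normalized count of the 15 T cell markers was 4845, 2053 and 1962 in the control and 2241, 4001 and 4366 in the FF-10101 tumors. As for *Cxcr3* and *Cxcr6*, Control tumor 1 was the highest of the controls and FF-10101 tumor 1 the lowest of its group. Of these markers, 13 had a log2 difference above 0 and none had an unadjusted p under 0.05. *Cd8b1* and *Cd8a*, chains of the CD8 coreceptor, had the largest, 1.20 and 1.09 (limma adjusted p = 0.448 and 0.386), or 2.13 and 1.82 without Control tumor 1 (limma adjusted p = 0.00902 and 0.00753). Without Control tumor 3 both had 0.68 (limma adjusted p = 0.847 and 0.80). The sum of the 6 NK cell markers was 1974, 774 and 684 in the control and 1109, 1958 and 2223 in the FF-10101 tumors, and *Klrb1c* and *Eomes* had log2 differences of 1.24 and 1.08, or 1.88 and 1.62 without Control tumor 1 (limma adjusted p = 0.0155 and 0.00622). Without Control tumor 3, *Klrb1c* and *Eomes* had 0.77 and 0.63 (limma adjusted p = 0.753 and 0.694). The part of T cells and NK cells in the values of *Ccl5*, *Cxcr3* and *Cxcr6* was not tested.

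The macrophage markers went the other way from the CXCR3 ligands. Their sum was 99339, 67125 and 83999 in the control and 33088, 52138 and 51809 in the FF-10101 tumors. Of 9 markers, 8 had a log2 difference below 0, and 6 had an unadjusted p under 0.05 with the FF-10101 tumors below the controls, where 7.49% of all genes were lower at that p and 9.37% lay below without overlap. *Mrc1*, the mannose receptor gene, had a log2 difference of -1.35 and *Lyz2*, the lysozyme gene, of -1.05 (limma adjusted p = 0.229 for both). FF-10101 tumor 1 had the lowest macrophage sum and the highest *Cxcl10* and *Cxcl11*, but the lowest *Cxcl9* and *Ccl5* of its group. Control tumor 1 had the highest macrophage sum of the 6 tumors and the highest value of each of the 7 genes among the controls. The sum of 8 dendritic cell markers was 4551 to 5198 in the control and 3570 to 5497 in the FF-10101 tumors, most of it *Fscn1*, with 4211 to 4675 and 3177 to 5207, so it describes that gene more than the list. Of these 8, 2 had a log2 difference above 0, *Zbtb46* and *Clec9a* at 0.74 and 0.71 with overlapping groups (1.19 and 1.30 without Control tumor 1, limma adjusted p = 0.0321 and 0.0227), and 6 had one below 0, with a median of -0.23 over the list. Without Control tumor 1 the median was -0.0076, and *Xcr1* and *Itgae* were then above 0 as well (0.12 and 0.17). *Zbtb46* had 0.31 without Control tumor 2 and *Clec9a* had 0.41 without Control tumor 3 (limma adjusted p = 0.772 and 0.87). *Batf3*, named after its value was seen as the sole dendritic cell marker with an unadjusted p under 0.05, had -0.68 (limma adjusted p = 0.306).

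The sum of the endothelial markers had the arrangement of *Cxcl9*, although for *Erg* the groups did not overlap. It was 5127, 2019 and 1476 in the control and 5087, 5743 and 5784 in the FF-10101 tumors, and 6 of 6 were higher at an unadjusted p under 0.05, against 8.77% of all genes (*Erg* 1.33 and *Kdr* 1.20 on the log2 scale, limma adjusted p = 0.229 and 0.29, or 1.74 and 1.83 without Control tumor 1, with 0.00628 and 0.00181). Without Control tumor 3, *Erg* and *Kdr* had 1.06 and 0.76 (limma adjusted p = 0.61 and 0.684). Neutrophil markers summed to 527 to 1170 in the control and 1337 to 2021 in the FF-10101 tumors. All 5 tested neutrophil markers had a log2 difference above 0, 1.94 for *S100a9* and 2.88 for *Mmp8*, which had 0 reads in Control tumor 3. Without Control tumor 1 these were 2.60 and 4.34 (limma adjusted p = 0.000737 and 0.00894). Without Control tumor 3 they were 1.52 and 1.55 (limma adjusted p = 0.61 and 0.694). Of the mesenchymal markers, *Sparc* had a log2 difference of 0.93 and *Thy1* of 0.74, or 1.26 and 1.20 without Control tumor 1 (limma adjusted p = 0.0022 and 0.00693). Without Control tumor 3 they had 0.76 and 0.48 (limma adjusted p = 0.63 and 0.775). Within the FF-10101 group *Thy1* was lowest in tumor 1, as the T cell sum was, while *Sparc* was highest there. Which cells *Thy1* came from was not tested. B cell markers were low, with sums of 40.2 to 72.0 over 5 genes in the 6 tumors. The largest part was *Cd79b*, with 27 to 57 reads per tumor, above the limit of 3 reads. *Cd79b*, which alone could be tested, had a log2 difference of -0.23 (0.0080 without FF-10101 tumor 1).

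Markers of tissue around the tumor also differed between tumors. Skeletal muscle markers summed to 2503 to 5309 in the control and 2428 to 8236 in the FF-10101 tumors. Their log2 differences were 0.77 for *Tnnt3* (0.33 without Control tumor 2) and -0.73 for *Ckm* (-0.041 without FF-10101 tumor 1). Adipocyte markers summed to 250 to 511 and 263 to 1162, with 0.59 for *Adipoq* and 0.51 for *Fabp4*. Both rested on FF-10101 tumor 3, without which they were -0.086 and 0.0025. Keratinocyte markers reached 937 in FF-10101 tumor 1 and were 19.6 to 173 elsewhere, and the basal keratins *Krt5* and *Krt14* had 0 reads in 4 tumors. The part of these cell types in the values of the chemokine and receptor genes was not tested.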

How the data were processed

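Bulk RNA sequencing of 3 Control and 3 FF-10101 tumors was analysed, grouped by the treatment labels. The authors trimmed reads with fastp 0.19.5, quantified them with Salmon 1.5.1 on GENCODE vM27 (GRCm39) and tested genes with DESeq2 1.22.1. The deposited log2 values, 1 per gene and tumor, follow the variance-stabilizing form that the authors' DESeq2 offers, although the sources used here do not name it. Inverting it gave whole reads for 100% of 325854 values (tolerance 0.001). Normalized counts had been assumed in the plan and were recovered first.

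The 13963 genes whose mean normalized count reached 10 were tested with limma 3.58.1 in R 4.3.3 on log2(normalized count + 1), which understates fold changes of low genes, with a trend and Benjamini-Hochberg adjustment over all of them. Steps were tested on simulated data. Symbols, lengths and 31-base stretches came from GENCODE vM21 (51484 identifiers named, 99.3% of reads with a length) and promoters from RefSeq, both on GRCm38, another build than the authors'. Because Salmon divides reads between similar transcripts by estimation, genes with shared sequence are less certain.

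Named genes are the 7 genes, all genes of the lists of other receptors, *Pf4*, enzymes and inducers, the 2 tested genes with the largest absolute log2 difference of each other list, and the 5 genes most like each profile. The values of 2 listed genes are not reported here. The genes and lists were chosen with earlier results of these data known. Alternatives were other pseudocounts, minimum counts, scalings, no trend, array weights, a replicate block, the deposited log2 values, limma-voom and each tumor left out.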

Additional observations from a re-analysis of the deposited data

How the results depend on the processing

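The number of the 7 genes with an adjusted p under 0.05 (limma) was 0 with all tumors, 7 with array weights and 0 to 5 with 1 tumor left out, the 5 being without Control tumor 1. Array weights gave that tumor a weight of 0.139 and called 8365 of 13963 genes. Over all genes the call count was 6, and it was 17 with no minimum count, 3 with a minimum mean of 50, 3051, 1 and 3 when Control tumor 1, 2 or 3 was left out, and 3 when FF-10101 tumor 2 was. With the replicate block 0 of the 7 genes and 1 of all genes passed. The labels do not say whether same-numbered tumors were paired. Deviations of same-numbered tumors correlated at -0.288, -0.0397 and -0.277, and those of other pairs at -0.126 to 0.315. Such correlations cannot settle whether the tumors were paired. Of 119 log2 differences refitted, 106 kept their direction and side of the threshold, 12 kept their direction and passed it, and 1 reversed, *Cxcl16* at -0.027 without Control tumor 2 (up to 0.45 without Control tumor 1). Over all alternatives the log2 difference of *Ccl5* was 1.51 to 2.77 and that of *Cxcl9* 0.94 to 1.85. The differences in log2 ratio that reversed were *Cxcl9* to *Cxcl10* (0.0039), *Cxcl11* to *Cxcl10* (-0.0365) and *Cxcl9* to *Cxcl11* (0.0404) without FF-10101 tumor 1 (other ends of their ranges -0.48, 0.24 and -0.68), *Cxcl11* to *Cxcl10* at a pseudocount of 10 (-0.0904), *Cxcr6* to *Cxcr3* (-0.0511) and *Cxcr3* to T cell markers (0.139) without Control tumor 1 (other ends 0.35 and -0.21), and *Cxcr3* to T cell markers (0.0912) without FF-10101 tumor 2. The cause was not tested. Depth limits *Cxcl11* and *Cxcr3* most, with 26 to 308 and 49 to 200 reads. Scaling to the 75th percentile or quantile normalization moved the median of all genes by -0.0014 and -0.0123.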
